A study of Homo sapiens with 6 samples.

Results

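The genes described here encode hepatocyte growth factor (HGF), its receptor MET, and the proteins that activate HGF or carry the signal of MET. They are 9 of the 62703 genes listed in the expression table: *HGF*, *MST1*, *MET*, *MST1R*, *HGFAC*, *ST14*, *SPINT1*, *SPINT2* and *GAB1*. They were chosen by their role in this pathway, after the expected counts and TPM values of DKK1-SE-/- and DKK1-SE+/+ cells had been seen. The differences between those cells in these 9 genes are therefore a description. The genes were part of the fit across all genes, and since the same values chose them, nothing is read from their calls. The question asked of them was whether transcripts for an autocrine loop, in which a cell makes both HGF and MET, were present in the same samples.

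The study deleted e1, the core component of a super-enhancer of *DKK1* (DKK1-SE), with CRISPR/Cas9 in PANC-1 cells, an established line from a human pancreatic carcinoma. RNA was sequenced from 3 biological replicates of unedited cells (DKK1-SE+/+, labelled wild type) and 3 of cells with the homozygous deletion (DKK1-SE-/-). Both groups grew in medium with 10% fetal bovine serum, which is itself a source of growth factors. Per sample, the expected counts summed to 21822314, 16475810 and 18803154 for DKK1-SE+/+ replicates 1 to 3. For DKK1-SE-/- replicates 1 to 3 they summed to 17359835, 20098086 and 17804764.

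The DKK1-SE-/- cells were a single homozygous subclone, so the deletion and any other difference of that clone cannot be told apart, and p-values measure the spread between samples of it. *DKK1*, the target gene of the enhancer, had a TPM (a level scaled by gene length and library size) of 229, 246 and 199 in DKK1-SE+/+ cells and 66.8, 79.8 and 82.7 in DKK1-SE-/- cells. Every DKK1-SE-/- sample was below every DKK1-SE+/+ sample, the direction that the study reports for the deletion. The log2 fold change of *DKK1* was -1.45 (standard error 0.112, adjusted p = 6.16e-06 by edgeR's quasi-likelihood test with Benjamini-Hochberg adjustment).

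HGF is secreted as an inactive single chain, mostly by mesenchymal cells such as fibroblasts and stellate cells, and acts on epithelial cells that carry the receptor tyrosine kinase MET. Serine proteases cleave it into the active form, and Kunitz-type inhibitors on the cell surface restrain them. MST1 (macrophage-stimulating protein) and MST1R (RON) form a related pair of ligand and receptor that is activated in a similar way.

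Of the 9 genes, 7 had enough counts to enter the fit across all genes. HGFAC and ST14 did not. With an adjusted p-value under 0.05 as the call, 4 of the 7 were called, beside 39.3% of all 15179 tested genes. One gene, *HGF*, was called higher in DKK1-SE-/- cells, beside 19.8% of tested genes. *MST1R*, *SPINT1* and *GAB1* were called lower, beside 19.5%. By a rule that also asks for size (unadjusted p under 0.05 with a log2 fold change of 1.2 or more in either direction), 3 of the 7 were called, beside 8.66%. TPM did not overlap between the groups for 1 of the 7, beside 44.2% of tested genes. CPM (counts scaled by library size with the TMM method, but not by gene length) did not overlap for 3 of the 7, beside 51.9%.

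**Figure D1:**
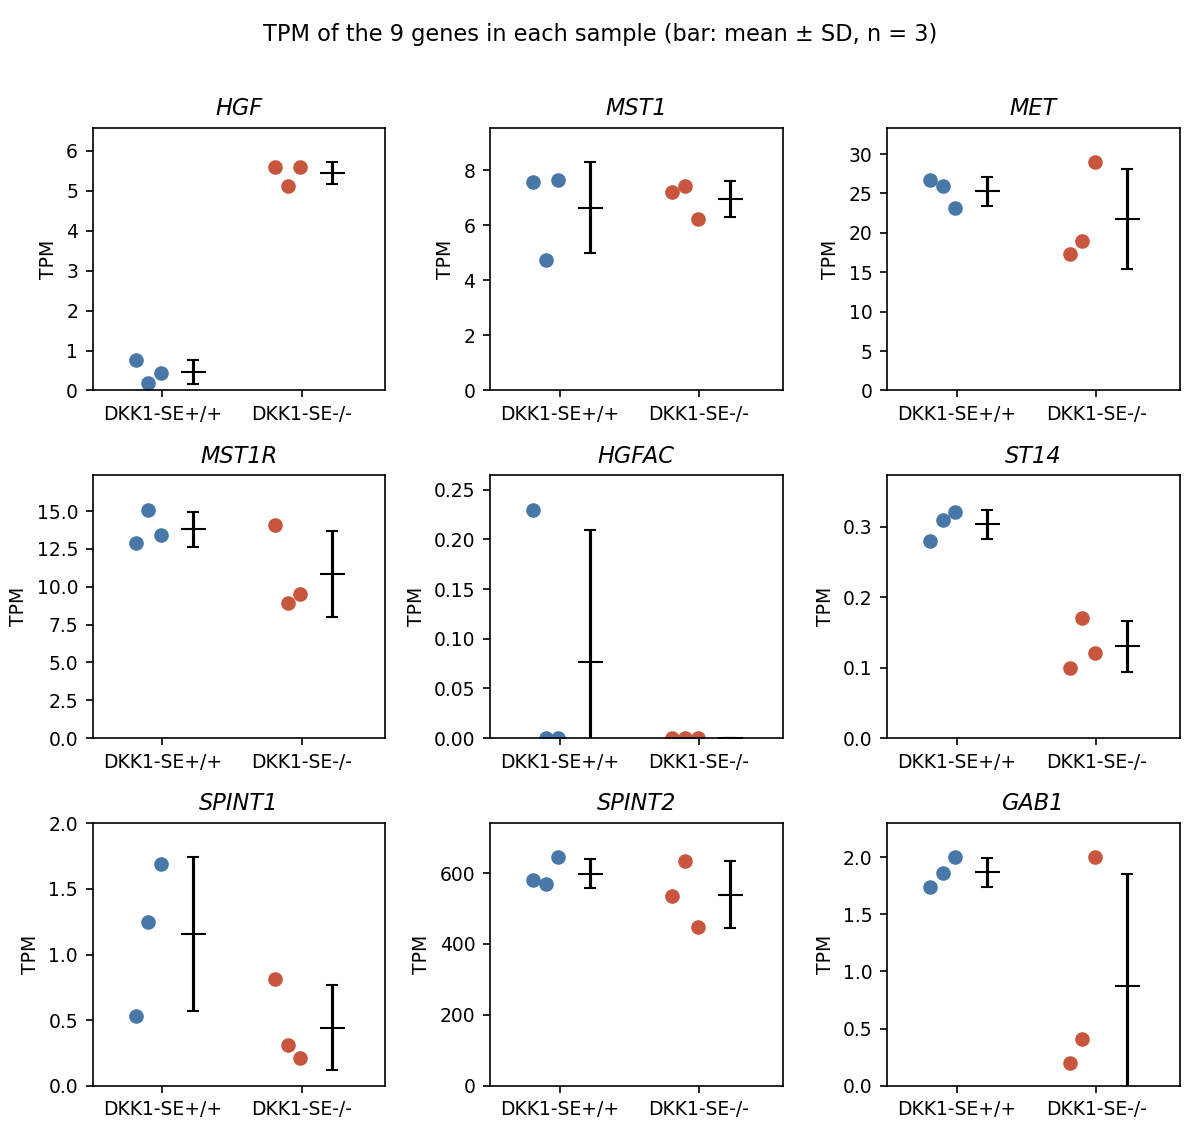
TPM of each of the 9 genes (vertical axes, each from 0) in the 3 DKK1-SE+/+ samples (blue) and the 3 DKK1-SE-/- samples (red), with the mean and SD in black, cut at 0. *HGF* lies between 0.18 and 0.77 in DKK1-SE+/+ cells and between 5.12 and 5.61 in DKK1-SE-/- cells, and *MET* overlaps between the groups.

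*HGF*, the ligand of MET, had a TPM of 0.77, 0.18 and 0.43 in DKK1-SE+/+ replicates 1 to 3 and of 5.60, 5.12 and 5.61 in DKK1-SE-/- replicates 1 to 3. All 3 DKK1-SE-/- samples were high and close to each other, and the groups did not overlap. Expected counts were 21, 8 and 13 against 147, 188 and 188, so the DKK1-SE+/+ values rest on few reads but are above the floor of 3 counts. The fitted log2 fold change was 3.76 (standard error 0.241), a 13.5-fold difference with a 95% interval from 9.36-fold to 19.5-fold. Among all tested genes, 99 had a larger log2 fold change. With limma the log2 fold change of *HGF* was 2.16 on log2(TPM + 1) and 3.45 on log2(TPM + 0.1). In the order of mean TPM, *HGF* was above 6.67% of tested genes in DKK1-SE+/+ cells and above 40% in DKK1-SE-/- cells. *HGF* also gives rise to short transcripts for truncated forms (NK1 and NK2), which a value per gene does not separate from the full-length transcript.

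The promoters of *HGF* and *MET* are shown because they belong to the ligand, whose level differed between the groups, and to the receptor, whose level did not separate them. The sequences are from RefSeq (GRCh38.p14) and run from 250 bases before RefSeq's start of the gene to 50 bases after it, 5′ to 3′. For *HGF* that start lies 391 bases after the start of the gene in GENCODE version 44, so the window lies within the GENCODE gene, while for *MET* both starts are the same. The *HGF* window is chr7:81769998-81770297 on the minus strand and the *MET* window is chr7:116671946-116672245 on the plus strand. Capitals mark matches to a searched motif on either strand.
HGF: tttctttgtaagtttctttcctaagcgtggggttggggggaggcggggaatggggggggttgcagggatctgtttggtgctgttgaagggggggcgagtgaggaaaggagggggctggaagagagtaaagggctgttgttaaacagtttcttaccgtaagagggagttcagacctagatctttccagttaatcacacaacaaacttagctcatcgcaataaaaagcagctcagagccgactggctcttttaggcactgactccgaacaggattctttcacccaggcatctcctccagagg
MET: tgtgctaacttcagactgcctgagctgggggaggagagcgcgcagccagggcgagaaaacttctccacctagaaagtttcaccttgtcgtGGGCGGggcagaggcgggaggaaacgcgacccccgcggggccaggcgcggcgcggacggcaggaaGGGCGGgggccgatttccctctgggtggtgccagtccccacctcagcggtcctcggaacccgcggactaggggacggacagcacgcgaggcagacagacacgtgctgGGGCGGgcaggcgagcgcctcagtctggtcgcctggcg

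AP-1, the transcription factor named in the title of the study, has the motif TGANTCA. It has no match in either window, while 7.71% of 35116 promoter windows of 300 bases hold one. The GC box, with the letters GGGCGG, has 3 matches in the *MET* window and none in the *HGF* window, and 45% of all windows hold at least 1. The TATA box, with the letters TATAAA, has no match in either and is held by 11.5% of windows. Of the 9 genes, 6 had a promoter in the table. Among their 7 windows, the only AP-1 match was in 1 of the 2 windows of *SPINT1*, which starts 6 bases before RefSeq's start of the gene.

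*MST1*, the ligand of MST1R, had a TPM of 7.56, 4.73 and 7.63 in DKK1-SE+/+ cells and of 7.21, 7.42 and 6.21 in DKK1-SE-/- cells. The groups overlapped, with the lowest value in DKK1-SE+/+ replicate 2. The log2 fold change was 0.37, with a 95% interval from -0.07 to 0.81. Without DKK1-SE-/- replicate 3 it was 0.51 and was called, and with an offset for GC content it was 0.07. *MST1* shares most of its sequence with the copies *MST1P2* and *MST1L*, so its counts are uncertain. *MST1P2* had 5 to 15.16 expected counts per sample and *MST1L* at most 2.78, against 79.35 to 150.38 for *MST1*. The end of *MST1* also overlaps *APEH* on the opposite strand, and whether counting used the strand is not given in the sources used here.

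*MET*, the receptor of HGF, had a TPM of 26.7, 25.9 and 23.2 in DKK1-SE+/+ cells and of 17.3, 19.0 and 29.0 in DKK1-SE-/- cells. DKK1-SE-/- replicate 3 had the highest value of all 6 samples and the other two DKK1-SE-/- samples the lowest, so the groups overlapped. The log2 fold change was -0.11 (standard error 0.129), with a 95% interval from -0.39 to 0.18. Without DKK1-SE-/- replicate 3 it was -0.27 and was called, and with an offset for GC content it was 0.03. *MET* was expressed above 71.0% of tested genes in DKK1-SE+/+ cells and above 69.6% in DKK1-SE-/- cells.

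Transcripts of *HGF* and *MET* were thus found together in all 6 samples. Per *MET* transcript by TPM, the level of *HGF* was 0.0288, 0.00695 and 0.0185 in DKK1-SE+/+ cells and 0.323, 0.270 and 0.193 in DKK1-SE-/- cells. The ratio was higher in every DKK1-SE-/- sample, and *MET* stayed the more abundant of the pair throughout. These values are of RNA, and secreted HGF, its cleavage and the phosphorylation of MET were not analysed here.

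*MST1R*, the receptor of MST1, had a TPM of 12.9, 15.1 and 13.4 in DKK1-SE+/+ cells and of 14.1, 8.90 and 9.49 in DKK1-SE-/- cells. By TPM, DKK1-SE-/- replicate 1 lay among the DKK1-SE+/+ samples. By CPM the groups did not overlap, with 34.0, 32.1 and 32.0 against 24.7, 19.0 and 18.2. The log2 fold change on counts was -0.66 (standard error 0.139). With limma on log2(TPM + 1) it was -0.35, and the call was lost at either pseudocount. *MST1* per *MST1R* by TPM was 0.586, 0.314 and 0.567 in DKK1-SE+/+ cells and 0.510, 0.834 and 0.654 in DKK1-SE-/- cells, which overlapped.

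HGFAC, a serine protease of plasma that activates HGF, had 2 expected counts in DKK1-SE+/+ replicate 1 and 0 in the other 5 samples. Both groups were at or under 3 counts, so no fold change is given, and its transcript was not detectable at this depth beyond that single sample. *ST14*, which encodes the membrane protease matriptase, had 7, 10 and 8 expected counts in DKK1-SE+/+ cells and 3, 9 and 5 in DKK1-SE-/- cells. The counts overlapped. Its TPM was 0.28, 0.31 and 0.32 against 0.10, 0.17 and 0.12 and did not overlap, so the scales differed for a gene with at most 10 counts.

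Other proteases were taken from a list of 7 further genes drawn up for the activation of HGF or MST1, of which 2 were tested. Whether their products cleave HGF in these cells was not analysed. *PLAU*, which encodes urokinase, had a TPM of 444, 430 and 434 in DKK1-SE+/+ cells and 864, 797 and 841 in DKK1-SE-/- cells. Every DKK1-SE-/- sample was above every DKK1-SE+/+ sample. *PLAU* rose with a log2 fold change of 1.10 (standard error 0.0993, edgeR adjusted p = 1.83e-05). *F12*, coagulation factor XII, had a TPM between 16.4 and 20.8 in DKK1-SE+/+ cells and between 9.56 and 15.3 in DKK1-SE-/- cells. Its log2 fold change was -0.43 (standard error 0.228, edgeR adjusted p = 0.156), and without DKK1-SE-/- replicate 3 it was -0.19. It was called lower with the GC-content offset (-0.68) and with no filter on low counts (-0.45). The remaining 5, *HPN*, *KLKB1*, *TMPRSS2*, *TMPRSS13* and *PRSS8*, had too few counts to be tested, and none had a TPM over 0.25 in any sample.

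**Figure D2:**
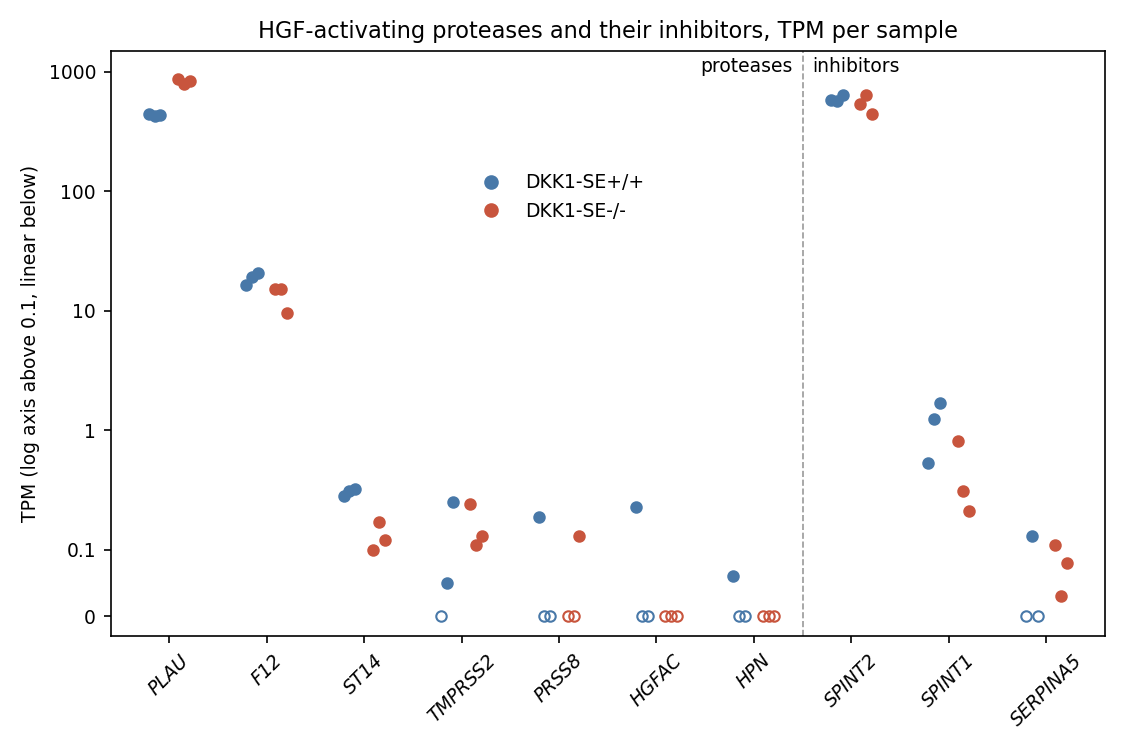
TPM per sample of proteases listed for HGF activation (left of the dashed line) and inhibitors (right) in DKK1-SE+/+ (blue) and DKK1-SE-/- (red) cells, on an axis that is logarithmic above 0.1 and linear below (open circles are at 0). *PLAU* and *SPINT2* lie at 430 or more in every sample, while *HGFAC* and *ST14* lie at 0.32 or less.

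SPINT1 and SPINT2 (HAI-1 and HAI-2) are Kunitz-type inhibitors of matriptase, hepsin and HGFAC. *SPINT2* had a TPM of 581, 570 and 645 in DKK1-SE+/+ cells and of 536, 635 and 447 in DKK1-SE-/- cells. The groups overlapped, and DKK1-SE-/- replicate 3 was the lowest. The log2 fold change was 0.10, with a 95% interval from -0.24 to 0.43, and its sign turned with the GC-content offset (-0.18) and without DKK1-SE-/- replicate 2 (-0.07). *SPINT2* overlaps *PPP1R14A* on the opposite strand, which had 1657 to 5114 expected counts, so part of its count may be shared.

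*SPINT1* had a TPM of 0.53, 1.25 and 1.69 in DKK1-SE+/+ cells and of 0.81, 0.31 and 0.21 in DKK1-SE-/- cells. The groups overlapped through the low DKK1-SE+/+ replicate 1 and the high DKK1-SE-/- replicate 1. Expected counts were 24, 31 and 33 against 18, 8 and 8. The log2 fold change was -1.25 (standard error 0.449). Its call was lost without DKK1-SE+/+ replicate 2 (-1.10) or 3 (-1.15) and without DKK1-SE-/- replicate 2 (-0.99) or 3 (-1.06). It was also lost with the replicate block (-1.29) and with limma, at -0.56 on log2(TPM + 1) and -1.24 on log2(TPM + 0.1). Without DKK1-SE-/- replicate 1 the value was -1.85. *SERPINA5*, the other inhibitor on the list, had a TPM of at most 0.13 and was not tested.

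*GAB1*, the docking adaptor that binds activated MET, had 69, 45 and 58 expected counts in DKK1-SE+/+ cells and 14, 14 and 25 in DKK1-SE-/- cells. Every DKK1-SE-/- sample was below every DKK1-SE+/+ sample, and the log2 fold change was -1.56 (standard error 0.310). With limma it was -0.74 on log2(TPM + 1) and -1.52 on log2(TPM + 0.1), and the call was lost at either pseudocount. Its TPM was 1.74, 1.86 and 2.0 against 0.20, 0.41 and 2.0. On this scale DKK1-SE-/- replicate 3 equalled the highest DKK1-SE+/+ sample, so the groups overlapped. The TPM per CPM of *GAB1* was 0.572 to 0.694 in DKK1-SE+/+ cells, but 0.233, 0.575 and 1.44 in DKK1-SE-/- replicates 1 to 3. Over the 6 samples the same ratio was 0.378 to 0.831 for *HGF*, 0.473 to 0.980 for *SPINT1*, 0.371 to 0.907 for *ST14* and 0.189 to 0.231 for *MET*. For *MST1R* it was 0.380, 0.469 and 0.421 in DKK1-SE+/+ cells and 0.571, 0.469 and 0.521 in DKK1-SE-/- cells. The cause of these differences was not tested. The pseudogene *RPSAP36*, which lies within *GAB1* on the same strand, had at most 6 expected counts.

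In DKK1-SE+/+ cells the order of mean TPM was *SPINT2* (599 ± 40.3, SD, n = 3), *MET* (25.3 ± 1.82), *MST1R* (13.8 ± 1.12), *MST1* (6.64 ± 1.65), *GAB1* (1.87 ± 0.130), *SPINT1* (1.16 ± 0.586), *HGF* (0.46 ± 0.296), *ST14* (0.303 ± 0.0208) and *HGFAC* (0.0767 ± 0.133). The ranges of *SPINT1* and *HGF* overlapped, as did those of *HGF* and *ST14*. In DKK1-SE-/- cells *HGF* (5.44 ± 0.280) stood directly below *MST1* (6.95 ± 0.647), and their ranges did not overlap. Below it came *GAB1* (0.87 ± 0.984) and *SPINT1* (0.443 ± 0.321), whose ranges overlapped each other. The order of the other genes was the same in both groups.

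Beyond the 9 genes, 51 further genes of the pathway were listed by role and 43 were tested. Of these, 12 rose and 13 fell in DKK1-SE-/- cells, and 18 were not called. That is 58.1% called, against 39.3% of all tested genes, a share that was not matched for expression level. The lists were chosen with earlier results of these data known. This share and those of the single lists below are therefore a description, and no enrichment is read from them. The 25 calls became 16 without DKK1-SE+/+ replicate 2 or 3 or DKK1-SE-/- replicate 2, 31 without DKK1-SE-/- replicate 3, and 13 with limma. The calls among all genes moved too, from 5972 of 15179 to 4001, 4628, 4635 and 7518 with these samples left out in turn. With limma they were 3166 or 3315 of 22311, by pseudocount. The median log2 fold change of the 43 pathway genes was 0.03, the same as that of all tested genes (0.03).

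**Figure D3:**
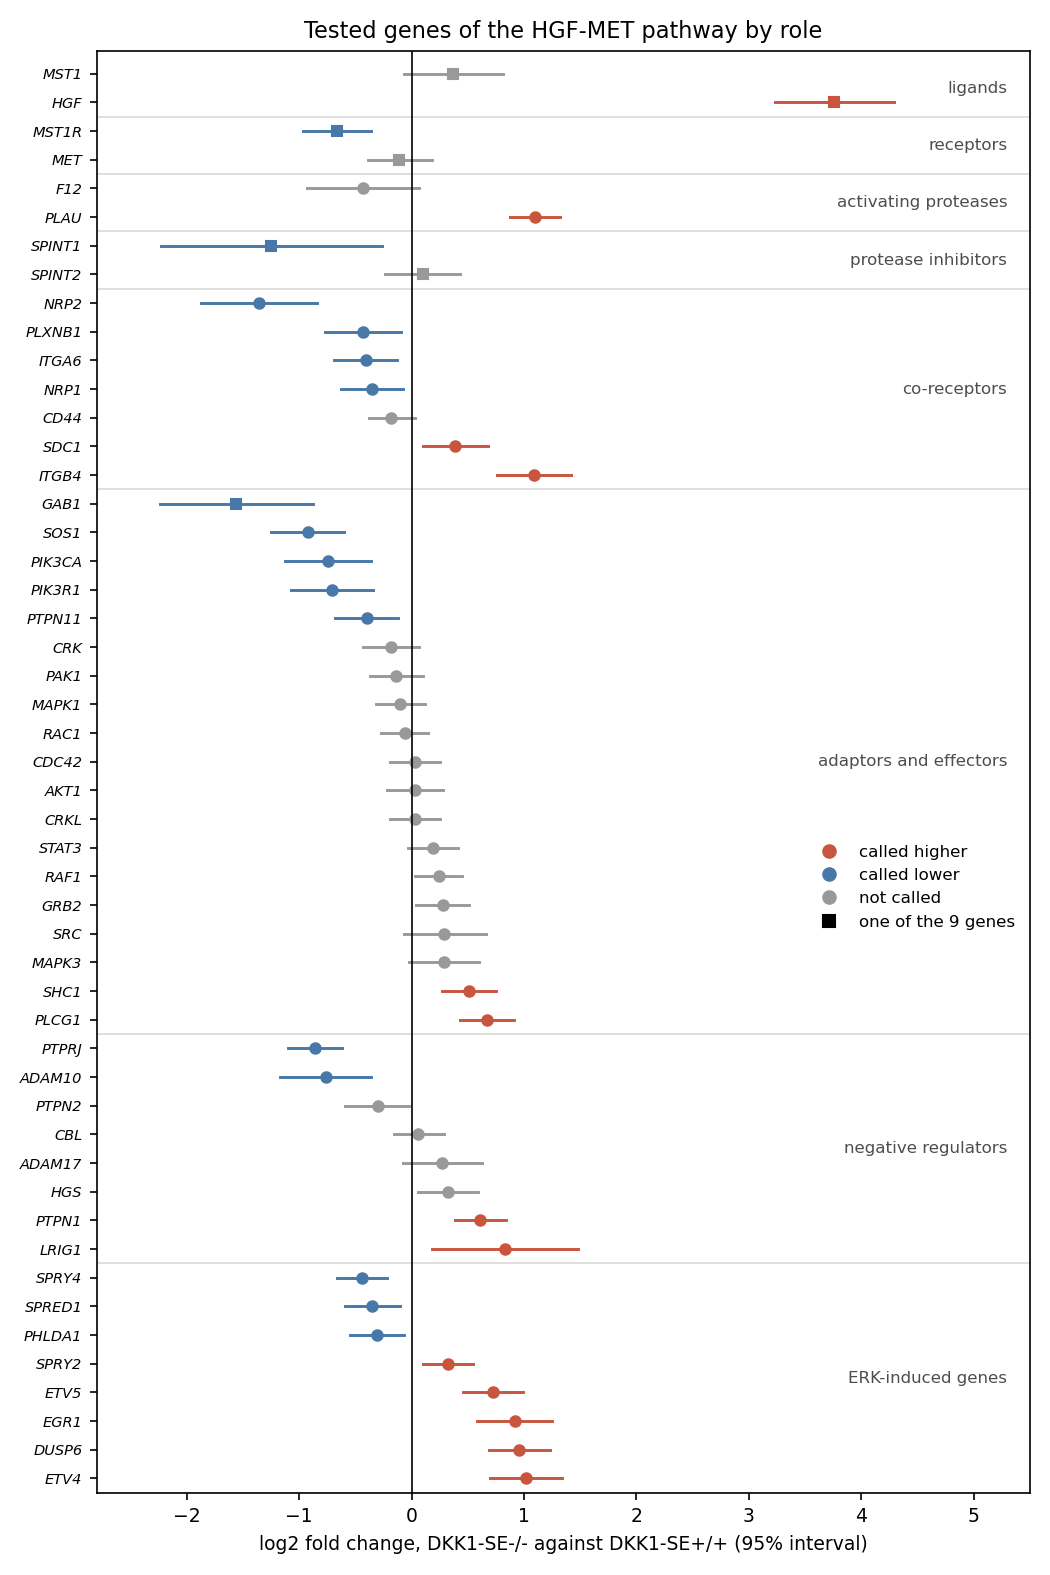
Log2 fold change of DKK1-SE-/- against DKK1-SE+/+ cells (horizontal axis) with its 95% interval for each tested gene, grouped by role (squares are tested genes among the 9, circles other pathway genes, red called higher, blue called lower and grey not called). *HGF* stands at 3.76, and the other genes lie between -1.56 and 1.10.

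Co-receptors and partners of MET were all tested, and of 7 genes 2 rose and 4 fell, which is 85.7% called beside 39.3% of all tested genes. *ITGB4*, an integrin subunit that can join MET signalling, had a TPM of 9.20, 15.4 and 14.3 in DKK1-SE+/+ cells and 32.2, 22.2 and 26.1 in DKK1-SE-/- cells, without overlap. It rose by 1.09 on the log2 scale (standard error 0.149, edgeR adjusted p = 2.81e-04). *NRP2*, a neuropilin, fell by 1.36 on the log2 scale (standard error 0.235, edgeR adjusted p = 0.00119). With limma it was at -0.78 on log2(TPM + 1) and at -1.29 on log2(TPM + 0.1). *SDC1* rose by 0.39, and *PLXNB1*, *ITGA6* and *NRP1* fell by 0.43, 0.41 and 0.35. With the GC-content offset *SDC1* was at 0.10, *PLXNB1* at -0.74 and *ITGA6* at -0.27, and without DKK1-SE-/- replicate 1 *SDC1* was at 0.23. Of 15 alternatives, the call was lost in 11 for *SDC1*, 8 for *PLXNB1*, 7 for *ITGA6* and 9 for *NRP1*. Without DKK1-SE+/+ replicate 2 or 3, or without DKK1-SE-/- replicate 1 or 2, 1 gene of the list (*ITGB4*) rose and 1 (*NRP2*) fell. In these fits 4001, 4628, 5249 and 4635 of all 15179 tested genes were called, against 5972 with all samples. The most abundant was *CD44*, with a TPM of 858, 865 and 839 in DKK1-SE+/+ cells and 764, 725 and 820 in DKK1-SE-/- cells, without overlap. Its log2 fold change of -0.18 was not called (edgeR adjusted p = 0.160), and without DKK1-SE-/- replicate 3 it was -0.23 and was called.

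Of 18 adaptors and effectors other than *GAB1*, 2 rose and 4 fell, which is 33.3% called beside 39.3% of all tested genes. Without DKK1-SE-/- replicate 3 the counts were 5 and 5, with the GC-content offset 4 and 5, and with limma 0 and 1. Among all genes, 7518 and 6218 of 15179 were called in the first 2 of these fits. With limma 3166 or 3315 of 22311 were called, by pseudocount. *SHC1* and *PLCG1* rose by 0.51 and 0.67 on the log2 scale. *SOS1*, an exchange factor for RAS, fell by 0.92, and *PIK3CA*, *PIK3R1* and *PTPN11*, which act downstream of *GAB1*, fell by 0.74, 0.71 and 0.40. With the GC-content offset these 3 were at -0.30, -0.43 and -0.16, and *SHC1* was at 0.28. Of 15 alternatives, the call was lost in 10 for *PTPN11*, 3 for *PIK3CA*, 2 each for *PIK3R1*, *SHC1* and *PLCG1*, and 0 for *SOS1*. *RAC1* was the most abundant, with a TPM of 332 to 399, and was not called (log2 fold change -0.06). Of 8 tested negative regulators, *LRIG1* and *PTPN1* rose and *PTPRJ* and *ADAM10* fell, which is 50% called beside 39.3% of all tested genes. *LRIG1* had a log2 fold change of 0.83 (edgeR adjusted p = 0.0434). Its call was lost in 13 of 15 alternatives, at 0.42 with limma on log2(TPM + 1) and at 0.61 to 0.86 in the others that lost it. The calls of the other 3 genes were lost in none. With the offset *ADAM10* went from -0.76 to -0.31. The most abundant of them, *HGS*, had a log2 fold change of 0.32 and was not called (edgeR adjusted p = 0.0523). It was at 0.03 with the offset and at 0.19 without DKK1-SE-/- replicate 1, and without DKK1-SE-/- replicate 3 it was at 0.40 and was called.

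Of 8 genes that ERK signalling is known to induce, 5 were called higher and 3 lower, beside 39.3% of all tested genes called. Without DKK1-SE+/+ replicate 2 or 3, or without DKK1-SE-/- replicate 2, 4 were called higher and 1 lower, and with the GC-content offset 5 and 1. Of all 15179 tested genes, 4001, 4628, 4635 and 6218 were called in these fits, in that order. *ETV4* had a TPM of 8.90, 11.7 and 11.0 in DKK1-SE+/+ cells and 19.8, 18.4 and 20.6 in DKK1-SE-/- cells, without overlap. It rose by 1.02 on the log2 scale (standard error 0.146, edgeR adjusted p = 3.76e-04). *DUSP6*, *EGR1*, *ETV5* and *SPRY2* rose by 0.96, 0.92, 0.72 and 0.32. *SPRY4*, *SPRED1* and *PHLDA1* fell by 0.44, 0.35 and 0.31, and with the GC-content offset *SPRED1* turned to 0.13 and *PHLDA1* was at -0.15. The call was lost in 9 of 15 alternatives for *SPRY2* and in 7 for *PHLDA1*, and for *SPRED1* it was lost in 6 and the sign turned in 2. *PHLDA1* was the most abundant, with 86.1, 95.7 and 103 TPM against 71.4, 67.0 and 67.5. These genes respond to many receptors, and no part of their change was assigned to MET.

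Markers of cell types were read in the same samples. Of 8 fibroblast markers, 1 had a mean TPM of at least 1. Their summed TPM was 4.41, 3.58 and 5.05 in DKK1-SE+/+ cells and 3.14, 5.97 and 3.15 in DKK1-SE-/- cells, mostly from *THY1*, while *COL1A2* and *FAP* were at 0 in every sample. All samples were of the PANC-1 line, and in bulk RNA fewer cells expressing a gene and less RNA per cell cannot be told apart.

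Of 6 epithelial markers all had a mean TPM of at least 1. Their sum, led by *KRT8*, was 1847, 1888 and 1925 in DKK1-SE+/+ cells and 3147, 3090 and 2662 in DKK1-SE-/- cells. *KRT8*, *KRT18* and *KRT19* rose and *EPCAM* fell, by the edgeR call, and *CDH1* had a TPM of 0.42 to 2.67. Of the ductal factors *SOX9* was expressed and fell by 0.39 on the log2 scale. The 5 acinar and 3 endocrine markers had at most 3 counts in each sample. Of 4 endothelial markers *KDR* reached a mean TPM of 1, and it fell by 2.49. Of 4 immune markers only *CD68*, which other cells also express, did so, and it rose by 0.76. The part of these markers in the values of the 9 genes was not tested.

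The genes lie on several chromosomes. On hg38, with the positions of GENCODE version 44, *HGF* is at chr7:81699010-81770438 on the minus strand and *MET* at chr7:116672196-116798377 on the plus strand, 34.9 Mb apart. *DKK1*, whose enhancer was edited, is at chr10:52314281-52318042. Within 1 Mb of *HGF*, the nearest tested genes were *CACNA2D1*, 176 kb away, and *SEMA3C*, 777 kb away. *CACNA2D1* was not called (log2 fold change -0.27, edgeR adjusted p = 0.209), and *SEMA3C* fell by 1.08 on the log2 scale (edgeR adjusted p = 0.00101). No tested neighbour of *HGF* within 1 Mb rose.

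In a window of 2 Mb on either side, measured between gene bodies and chosen after the values were seen, 1 of 5 tested neighbours of *HGF* rose (*GNAI1*) and 2 fell. Around *MET*, 4 of 7 rose and none fell. Of all tested genes 19.8% rose and 19.5% fell. *CAV1*, which encodes caveolin-1, rose from a mean TPM of 234 ± 8.88 to 483 ± 53.6 (SD, n = 3), with a log2 fold change of 1.11 (edgeR adjusted p = 1.82e-05). *CAV2*, *TES* and *ST7* also rose, while *MET*, which lies between them, was not called. *CAPZA2*, between *MET* and *ST7*, was not called either (log2 fold change 0.29, edgeR adjusted p = 0.0858), nor were *MDFIC* and *LSM8*. For *MST1R*, the nearest neighbour on one side, *TRAIP*, fell by 0.53 (edgeR adjusted p = 0.0131) and *MON1A* on the other was not called (log2 fold change -0.36, edgeR adjusted p = 0.0781). For *GAB1*, neither *USP38* nor *SMARCA5-AS1* was called.

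**Figure D4:**
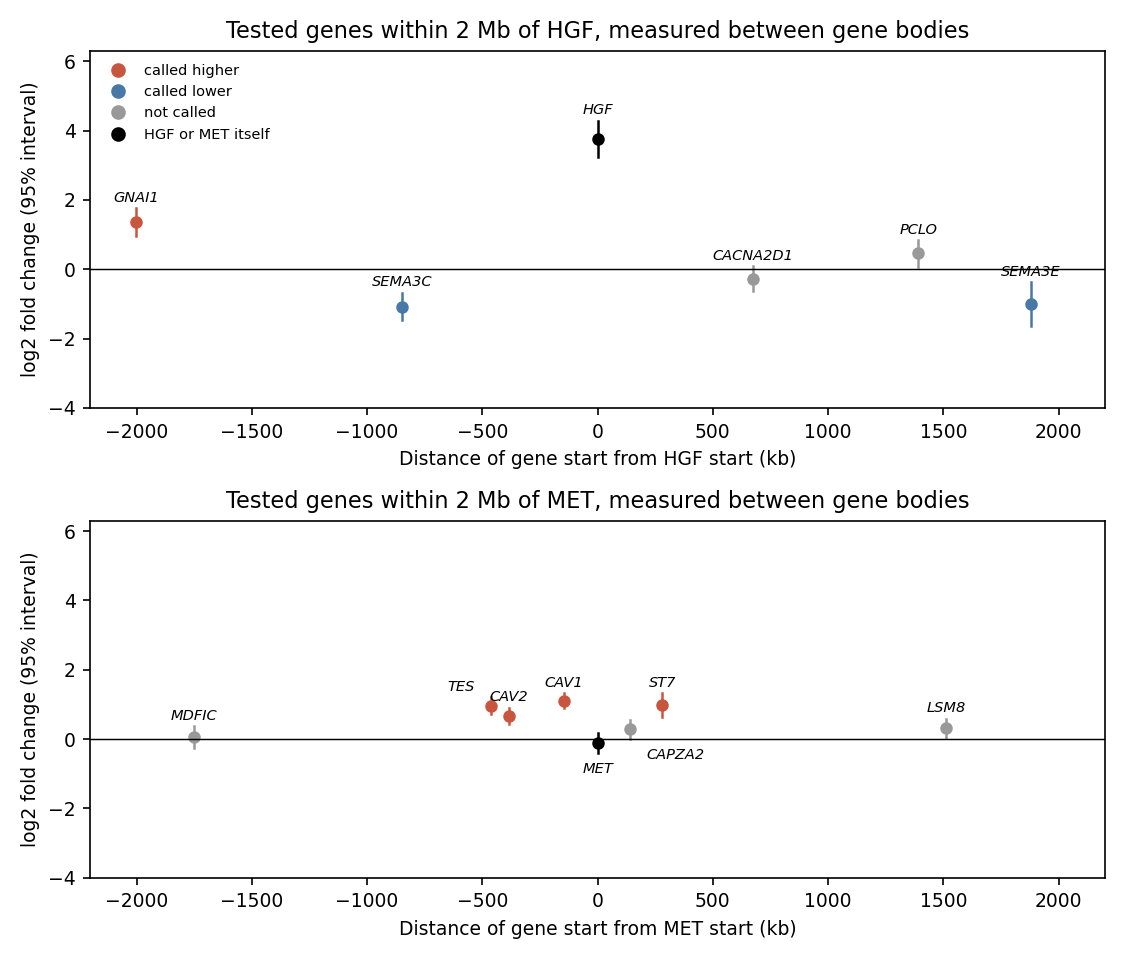
Log2 fold change with its 95% interval (vertical axes) of tested genes within 2 Mb of *HGF* (top) and *MET* (bottom), measured between gene bodies, by the distance of each gene start from the start of *HGF* or *MET* in kb; black marks *HGF* or *MET*, red called higher, blue called lower, grey not called. *HGF* stands at 3.76 among neighbours from -1.08 to 1.35, and *MET* at -0.11 beside *CAV1* at 1.11.

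Among the other 15178 tested genes, the 3 whose log2(TPM + 1) followed *HGF* most closely over the 6 samples were *SPOCD1*, *ARHGAP24* and *BLCAP*, with Pearson's r of 0.999, 0.997 and 0.996. *SPOCD1* had a TPM of 1.08, 0.39 and 0.75 against 6.12, 5.4 and 5.77, with DKK1-SE+/+ replicate 2 the lowest, as for *HGF*. For *MET* they were *RPS20P22*, *EIF4G3* and *TENT4B*, with r of 0.995, 0.994 and 0.991. *EIF4G3* had a TPM of 37.2, 36.4 and 33.5 against 24.3, 28.1 and 40.7, with DKK1-SE-/- replicate 3 the highest, as for *MET*. With 6 samples in 2 groups and so many genes searched, high values of r are given as a description.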

How the data were processed

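The authors prepared stranded mRNA libraries and deposited 1 table with an expected count and a TPM value per gene and sample. The build named in the submitters' processing notes is hg38, and the aligner, counting program and annotation are not given in the sources used here. The fold change (a linear ratio), log2 fold change, p-value and adjusted p-value columns of the authors' own comparison in the deposited table were not used.

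The expected counts (32.3% of nonzero values not whole, tolerance 1e-06) were rounded for edgeR 4.0.16 (R 4.3.3). After filterByExpr by group (minimum count 10) and TMM scaling, the groups were compared by the quasi-likelihood F test without covariates, with Benjamini-Hochberg adjustment over 15179 genes. A standard error is the absolute log2 fold change divided by the square root of F. Intervals are 95%, and the floor of 3 counts covers counting error only. DESeq2 1.42.0, limma 3.58.1 (trended, on log2(TPM + 1) or log2(TPM + 0.1) with a mean TPM of 0.1 or more), RLE or library size alone, no filter, the replicate number as a block, a GC-content offset in 40 bins, a limit of 1.2 on the log2 fold change with an unadjusted p under 0.05, and leaving out each sample were alternatives. The alternatives for single pathway genes other than the 9 were added after seeing the data. The fits were tested on simulated data.

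The 9 genes and the lists were chosen with earlier results of these data known. Named were the 9 genes, the most abundant gene of each list and those called with a log2 fold change of 1 or more in either direction, *DKK1*, the nearest tested genes within 1 Mb of called genes with a mean TPM of at least 1, the 3 genes most alike to *HGF* and *MET*, overlapping genes and copies, and markers. Other called genes and those within 2 Mb were named after their values were seen. Promoters were taken from RefSeq and positions from GENCODE version 44.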

Additional observations from a re-analysis of the deposited data

How the results depend on the processing

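As a description, the log2 fold change of *HGF* ranged from 2.16 to 4.26 over the 15 alternatives run for it, and from 3.57 to 4.04 with each sample left out. The value of 2.16 was with limma on log2(TPM + 1), and limma on log2(TPM + 0.1) gave 3.45. *DKK1* was called lower in each of the 15 alternatives, from -1.53 to -1.39 with a sample left out. With limma on log2(TPM + 1), 3166 genes were called, 1 of the 9 genes (*HGF*) and 13 other pathway genes. Of the 3166 genes 1172 were higher and 1994 lower, against 3013 and 2959 by edgeR. On log2(TPM + 0.1) the numbers were 3315, 1 and 13. By an unadjusted p under 0.05 with a log2 fold change of 1.2 or more in either direction 1314 genes and 1 other pathway gene were called. This last rule also asks for size, and the cause of the lower numbers with limma was not tested. Leaving out 1 sample gave 4001 to 7518 called genes, 3 to 5 of the 9, and 16 to 31 other pathway genes, with 16 without DKK1-SE+/+ replicate 2 or 3 or DKK1-SE-/- replicate 2.

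The sign turned for *MET* with the GC-content offset (0.03, and 0.03 with the replicate block as well). It turned for *SPINT2* with limma (-0.16 at either pseudocount), the offset (-0.18), the offset with the block (-0.19) and without DKK1-SE-/- replicate 2 (from -0.07 to 0.24 over the samples left out), and for *SPRED1* with the offset (0.13, and 0.13 with the block). Neither *MET* nor *SPINT2* was called by edgeR with all samples. Log2 fold changes rose with GC content across genes (Spearman's rho = 0.404, and -0.0112 with the offset), and genes are not independent replicates.

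With the replicate block 4981 genes were called, and of the 9 genes *SPINT1* lost its call, at -1.29 against -1.25 without the block. With the block and the GC-content offset *SPINT1* was called, at -1.57. Deviations of same-numbered samples from their group means had correlations of -0.123, -0.0738 and -0.109. Those of samples with unlike numbers ran from -0.0471 to 0.153. With 3 samples per group, each centred on its group mean, these values cannot decide whether same-numbered samples shared a batch. *HGFAC*, *ST14* and *SPINT1* had at most 2, 10 and 33 expected counts in any sample, and the part of depth in this was not tested.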
